A study of Mus musculus with 6 samples.

Results

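The high mobility group genes described here are 10 rows of a matrix of 54532 mouse Ensembl genes: the HMGN genes Hmgn1, Hmgn2, Hmgn3 and Hmgn5 with the Hmgn2 copy Gm10282, the HMGA genes Hmga1 and Hmga2, and the HMGB genes Hmgb1, Hmgb2 and Hmgb3. All 10 had reads and all 10 passed the filter on low counts. The group was chosen by family name, but with the measured shNgb against shVec difference of Hmgn2 in view, and Gm10282 was added because its transcript nearly equals that of Hmgn2. The difference of Hmgn2, and that of its near copy Gm10282, are therefore given as descriptions with no test.

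RNA was sequenced from 6 subcutaneous tumours of G422, a mouse glioblastoma line, grown in Kunming mice, an outbred stock. In 3 tumours (shNgb) the G422 cells carried a lentiviral construct labelled as a hairpin against Ngb, the gene of the globin neuroglobin, and in 3 (shVec) they carried the vector; every tumour is otherwise labelled untreated, and no age is given. The series title speaks of a knockdown, while its design text names Ngb itself as what was introduced, so the group names below are those of the sample labels. Ngb stood at 1.03 ± 0.326 CPM (read counts scaled to a common library size by TMM; SD, n = 3) in shVec and 0.690 ± 0.237 CPM in shNgb, with overlapping libraries, which does not settle the point. The labels do not say whether the stable lines were clones or whether each tumour came from a separate mouse, and a p-value here reflects how far these 6 tumours differ from each other.

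Libraries held 19630319 to 25620667 reads. Of 16 glioma and neural markers, 8 passed the filter, led by Vim and Nes; Olig1 and Olig2 had 0 reads in all libraries and Gfap, the astrocyte filament, averaged 0.0843 and 0.149 CPM in shVec and shNgb, so these 3 glial markers of the labelled cell type were absent or nearly so. Cspg4 and Pdgfra, of the oligodendrocyte lineage and also of other cells, were present at 305 and 278 CPM and at 43.3 and 57.7 CPM. Of the 8 tested markers, 2 were positive and 6 negative on the log2 scale, and edgeR called 0. Nes, at 506 and 414 CPM with the groups apart, had a log2 fold change of -0.29 (SE 0.0822). It was the 1 with an edgeR unadjusted p under 0.05, against 2.58% of all genes. Whole tumours also hold host cells, and in bulk RNA fewer cells of a type and less RNA per cell cannot be told apart.

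Proteins of the 3 families bind chromatin without being histones. HMGN proteins bind the nucleosome core particle through a short conserved basic motif and compete with linker histone H1. HMGA proteins hold the minor groove of AT-rich DNA through AT-hooks, are abundant in embryonic and many tumour cells and scarce in most adult tissue. HMGB proteins bend DNA with a pair of HMG boxes and end in an acidic tail, and HMGB1 released from cells also acts as an alarm signal on TLR4 and RAGE.

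The transcripts of Hmgn2 and Gm10282 are nearly the same in sequence, which is shown first because it bears on how their reads can be counted; its part in the values below was not tested. Hmgn2 lies on chromosome 4 (GRCm38, GENCODE M21, chr4:133964738-133968650, minus strand) and its longest coding transcript has 6 exons and 1265 bases. Gm10282 lies on chromosome 8 (chr8:72304110-72305260, minus strand), is a single exon of 1151 bases and is annotated as protein coding by GENCODE and as a pseudogene by RefSeq. Their coding sequences are the same in all 273 bases, stop codon included. It is printed below as the stretch where a read cannot be given to either gene by its letters alone, and the capitals mark the codons of the nucleosome-binding motif.
Hmgn2 and Gm10282: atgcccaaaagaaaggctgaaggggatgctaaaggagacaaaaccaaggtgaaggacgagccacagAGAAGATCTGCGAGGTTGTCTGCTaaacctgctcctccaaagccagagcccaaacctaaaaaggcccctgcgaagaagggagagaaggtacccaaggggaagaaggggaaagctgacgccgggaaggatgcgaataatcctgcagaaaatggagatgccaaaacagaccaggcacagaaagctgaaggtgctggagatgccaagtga

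The 2 transcripts differ in the 3′ untranslated region and at their ends. Over 1151 aligned columns the identity was 99.3%, with 6 substitutions and 2 bases present in Gm10282 and missing from Hmgn2. Counted from 1 at the 5′ end of the Hmgn2 transcript, with the Hmgn2 base first, the substitutions are C681G, A689C, G779A, A817G, T895C and T995C. The coding sequence spans bases 193 to 465, so all 6 lie downstream of it. Of all 50-base words of the Hmgn2 transcript, 67.1% also occur in Gm10282, and of all 100-base words 47.0%. How the authors counted reads that fit more than one place is not given in the sources used here.

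**Figure D1:**
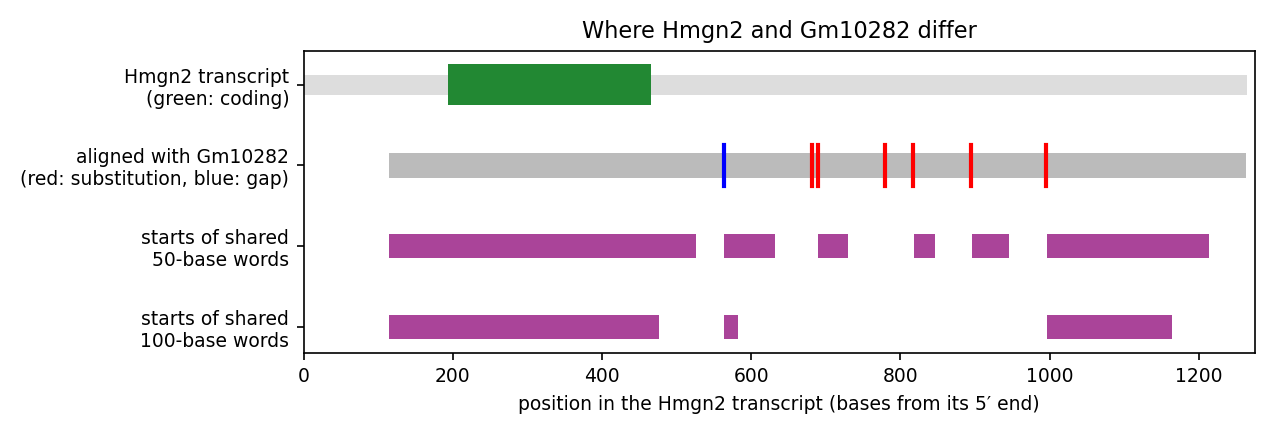
Map of the Hmgn2 transcript, with position in bases from its 5′ end on the horizontal axis: the coding sequence (green), the stretch aligned with Gm10282 (grey) with 6 substitutions (red) and a gap of 2 bases (blue), and the start positions of 50-base and 100-base words that recur in Gm10282 (purple). The coding sequence carries no difference, and bases 1 to 113 have no counterpart in Gm10282.

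Other HMGN genes can be told from Hmgn2 even inside the shared motif. The same 60-base window around the motif codons is shown for each HMGN gene, from base 34 of the coding sequence in Hmgn1, base 49 in Hmgn2 and Gm10282, base 55 in Hmgn3 and base 28 in Hmgn5. The capitals mark the motif codons. The lines of Hmgn2 and Gm10282 are the same, and the others use different codons there.
Hmgn1: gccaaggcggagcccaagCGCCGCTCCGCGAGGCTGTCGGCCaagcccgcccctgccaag
Hmgn2: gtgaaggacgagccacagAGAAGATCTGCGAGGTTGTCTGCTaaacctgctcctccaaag
Gm10282: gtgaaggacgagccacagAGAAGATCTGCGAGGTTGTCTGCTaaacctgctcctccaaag
Hmgn3: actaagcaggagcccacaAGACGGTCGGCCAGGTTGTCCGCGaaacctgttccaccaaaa
Hmgn5: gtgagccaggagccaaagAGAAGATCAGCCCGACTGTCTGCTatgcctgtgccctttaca

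Among the HMGN genes, counts on Hmgn2 were low in the vector tumours and higher in the shNgb tumours. Hmgn2 stood at 22.4, 12.2 and 11.7 CPM in shVec 1 to 3 and at 46.6, 41.5 and 63.0 CPM in shNgb 1 to 3. Every shNgb tumour was above every shVec tumour. Group levels were 15.5 ± 6.03 and 50.4 ± 11.2 CPM (SD, n = 3), and the log2 fold change was 1.70 (SE 0.284, 95% confidence interval 1.03 to 2.37), a 3.25-fold difference. Without shVec 1, the highest control, it was 2.07, and without shNgb 3, the highest shNgb tumour, it was 1.50.

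Gm10282 showed the opposite order. It stood at 95.5, 92.0 and 91.9 CPM in shVec and at 82.5, 79.9 and 40.9 CPM in shNgb. Both groups were apart here too, with shNgb 3 well below the rest. The log2 fold change was -0.46 (SE 0.250, 95% interval -1.06 to 0.13). It was -0.20 without shNgb 3, so that tumour decides its size.

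The sum of both genes differed little between groups. It stood at 118, 104 and 104 CPM in shVec and at 129, 121 and 104 CPM in shNgb. The groups overlapped, since shNgb 3 lay between the lowest and the highest control. Group levels were 109 ± 8.10 and 118 ± 12.95 CPM (SD, n = 3), and the log2 fold change of the sum was 0.12 (SE 0.0992, 95% interval -0.10 to 0.35). The upper end of that interval is a 1.27-fold difference. As the sum holds both of these genes, it too is given as a description with no test.

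The split of the summed reads between both genes differed between groups. Whether this came from the levels of both transcripts or from the way reads were assigned to them was not tested. Hmgn2 held 492 of 2589, 243 of 2069 and 230 of 2035 summed reads in shVec 1 to 3, which is 19.0%, 11.7% and 11.3%. In shNgb 1 to 3 it held 967 of 2677, 1009 of 2951 and 1643 of 2709 reads, which is 36.1%, 34.2% and 60.7%. The 95% Wilson interval was 17.5% to 20.6% for the highest shVec share and 32.5% to 35.9% for the lowest shNgb share; these intervals cover counting error only. The mean share was 14.01% ± 4.32 in shVec and 43.7% ± 14.8 in shNgb (SD, n = 3), a gap of 29.6 percentage points, or 21.1 points without shNgb 3. Since the share follows from the Hmgn2 difference that led to this choice of genes, it is given without a test.

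Of 12 genes, Gm10282 among them, with at least 95% identity to the Hmgn2 transcript over 250 bases, 7 had reads. Hmgn2-ps1, a processed pseudogene inside the Epha5 locus, averaged 18.2 ± 3.63 CPM in the shVec tumours and 19.7 ± 3.62 CPM in the shNgb tumours, with a log2 fold change of 0.11 (SE 0.182). Gm10357 stood at 4.87 ± 0.107 and 5.27 ± 0.551 CPM. The remaining copies had few reads. Gm7931 had 33, 26 and 29 reads in shVec and 46, 26 and 45 in shNgb. Gm10182 had 17, 10 and 9 reads in shVec and 28, 18 and 22 in shNgb. These reads are not scaled to library size. Gm6750 and Gm7125 had 21 and 6 reads over all tumours. With all copies summed, the log2 fold change was 0.12 (SE 0.10, 95% interval -0.10 to 0.35).

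Host cell markers were not level between the same tumours. The 17 leukocyte markers, summed, stood at 40.9 to 78.4 CPM in shVec and at 59.5 to 140 CPM in shNgb, and 12 of the 13 tested had a positive log2 fold change. In edgeR 1 of the 13, Csf3r, had an unadjusted p under 0.05, against 2.58% of all genes, and 0 were called. Csf3r was low, averaging 1.38 CPM in shVec and 3.55 CPM in shNgb, with the groups apart. Ptprc, the common leukocyte antigen CD45, was at 8.84, 23.7 and 11.5 CPM in shVec and at 13.1, 21.9 and 38.5 CPM in shNgb; shNgb 3 had the highest level of Ptprc and of Hmgn2, while shVec 1 had the lowest Ptprc and the highest Hmgn2 of the controls. Fibroblast markers summed to 1784 to 2096 CPM in shVec and 1184 to 2495 CPM in shNgb, with Col3a1 the largest part of the sum. Of the 8 fibroblast markers tested, 7 were positive on the log2 scale. In edgeR 3 of them (Col1a1, Col1a2 and Thy1) had an unadjusted p under 0.05, against 2.58% of all genes, none with a call after adjustment. Col1a1 averaged 155 CPM in shVec and 281 CPM in shNgb, with the groups apart. Col3a1 was the negative one at -0.22, and Dcn, Pdgfrb and Postn were at 0.07, 0.01 and 0.09. Whether host or tumour cells held these transcripts was not tested. Endothelial markers summed to 79.2 to 82.1 and 69.4 to 83.8, muscle markers to 8.06 to 31.3 and 6.80 to 10.2, and erythroid markers to 19.8 to 37.9 and 26.5 to 52.4 CPM. The part of these cells in the split of Hmgn2 reads was not tested.

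The other members with a counted copy had shares with ranges of 0.71 to 5.7 points. Hmga1, the member of highest level, has a copy on chromosome 11, Hmga1b (chr11:120762794-120764419), whose coding sequence of 324 bases is also the same and whose transcript differs by 3 substitutions, A1061G, A1188G and G1650T, counted along the Hmga1 transcript. Of its 50-base words 69.1% recur in another gene, a share close to that of Hmgn2. Hmga1 held 69.3%, 68.6% and 69.1% of the summed reads in shVec and 69.3%, 69.6% and 67.8% in shNgb, a range of 1.84 points. Hmgb1 against its most counted copy, the processed pseudogene Gm5518, held 53.1% to 57.2%. Hmgb2 against Gm4739 held 88.5% to 90.4%, and Hmgn5 against Gm11914 held 90.5% to 96.2%. Hmgb3 against Gm6104 held 96.7% to 98.6%. The groups overlapped in these 5 pairs. Hmgn1 against Gm8666 held 99.4%, 99.4% and 99.2% in shVec and 99.7%, 99.5% and 99.9% in shNgb, so the groups were apart there, by 0.37 percentage points in the mean. These shares, too, are descriptions, and the part of shared sequence in them was not tested. Outside the families, the ribosomal protein gene Rpl17 held 44.6%, 24.01% and 25.4% of the reads it summed with its pseudogene Rpl17-ps10 in shVec and 73.8%, 63.7% and 59.8% in shNgb. This pair was named after its values were seen, and a cause common to it and the Hmgn2 pair was not tested.

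**Figure D2:**
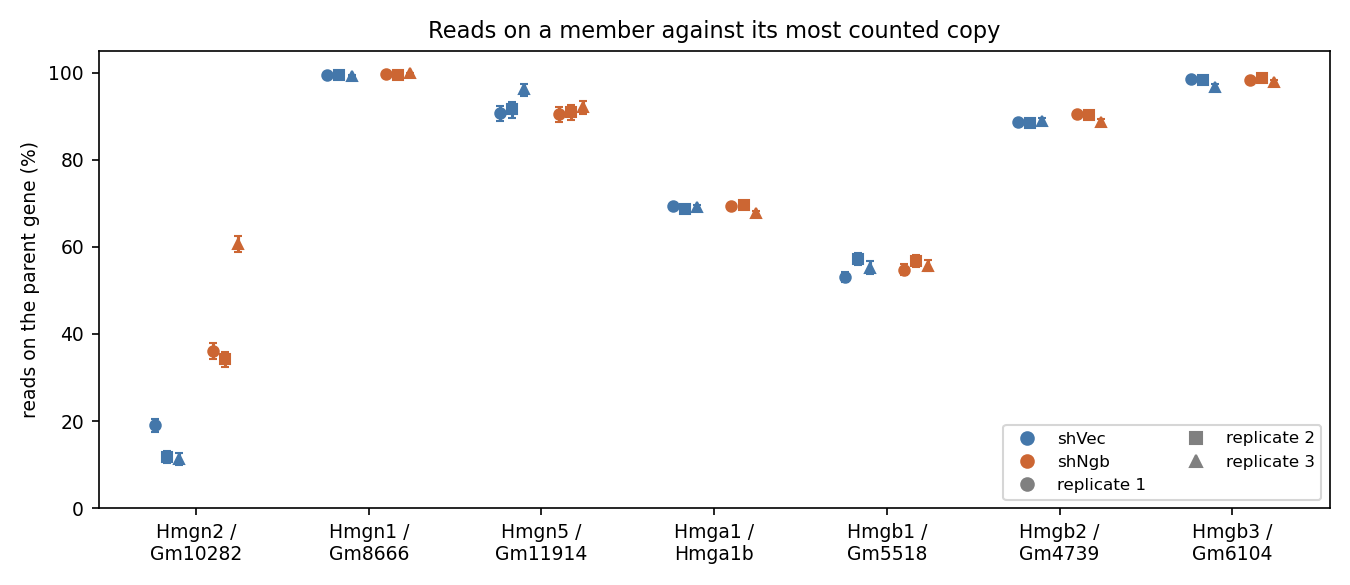
Share of the reads of a member and its most counted copy that was counted on the member, in percent, for 7 pairs, with shVec in blue, shNgb in orange, a symbol for each replicate and 95% Wilson intervals. The groups are apart by 29.6 points in the Hmgn2 pair and by 0.37 points in the Hmgn1 pair, and overlap in the other 5.

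Levels were compared between genes per length, as the authors' FPKM (fragments scaled to transcript length and library size), over all 6 tumours. Hmga1 was highest at a median of 485 FPKM (439.8 to 544), above 99.7% of the 18282 genes with reads in every library. Hmgn1 followed at 174.9 (169 to 179), then Hmgb2 at 94.2 (84.5 to 102). Gm10282 at 75.4 (35.2 to 82.7), Hmga2 at 68.4 (55.2 to 78.3) and Hmgb3 at 51.2 (41.6 to 60.8) overlapped each other in that order and neither Hmgb2 above nor Hmgb1 below. Hmgb1 at 27.0 (25.5 to 30.9) and Hmgn5 at 21.5 (18.5 to 24.4) were apart from each other. Hmgn2 and Hmgn3 came last by the median, each at 10.3 FPKM, with ranges of 3.81 to 20.4 and 10.03 to 13.04 that overlap. That of Hmgn2 also overlaps the range of Hmgn5. The Hmgn2 median falls between its groups, at 3.81 to 7.30 FPKM in shVec and 13.4 to 20.4 FPKM in shNgb. Hmgn2 was below Hmgn3 in each shVec tumour and above it in each shNgb tumour. The FPKM of Hmgn2 was computed over a length of 3065 bases, close to all its annotated exons together (3060 bases), while that of Gm10282 was computed over 1153 bases. Levels of members with counted copies are those of the row alone.

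**Figure D3:**
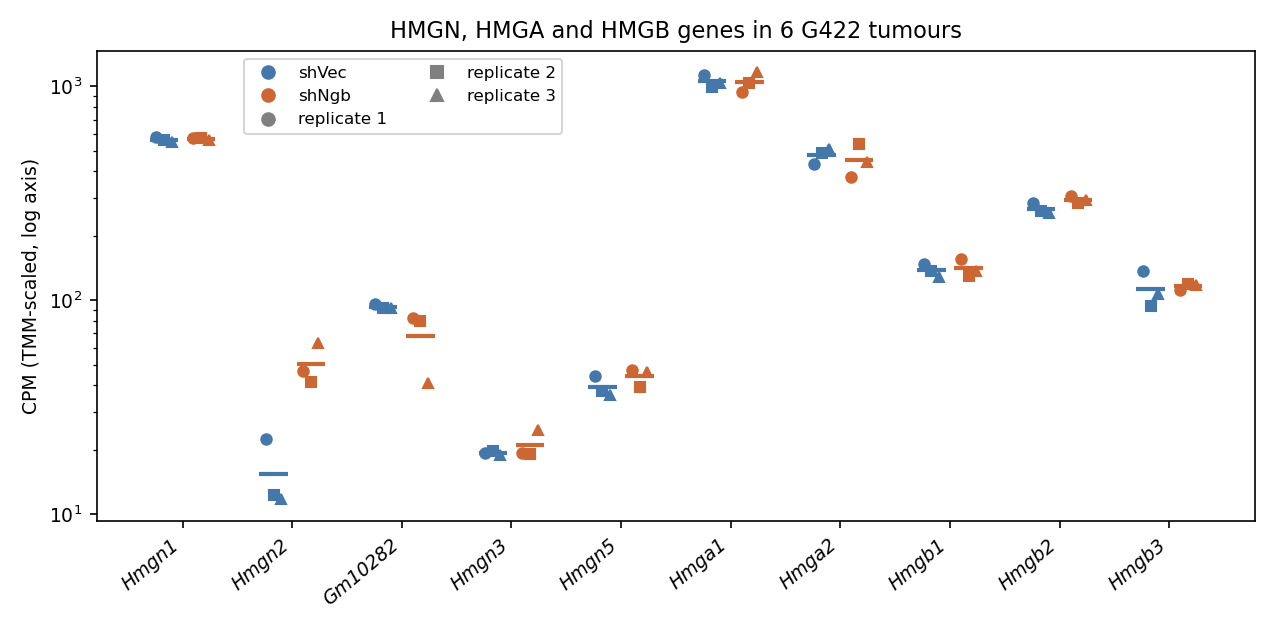
CPM of the 10 genes in each tumour on a log axis, with shVec in blue, shNgb in orange, a symbol for each replicate and a bar at each group mean. The groups are apart in Hmgn2 and Gm10282 and overlap in the other 8.

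The counts of calls are given beside those over all genes. edgeR called 0 of the 10 members at an adjusted p under 0.05, and 0 of all 15203 genes tested (0%). At an unadjusted p under 0.05 it passed 1 member, Hmgn2, against 392 genes in all (2.58%). DESeq2 called 1 member, again Hmgn2, against 5 of 15960 genes (0.0313%), and 2 members had an unadjusted p under 0.05 there, against 477 of 27832 genes (1.71%). limma-voom called 0 members and 0 of all genes (0%), and 1 member had an unadjusted p under 0.05, against 428 genes (2.82%). The groups did not overlap in 2 members, Hmgn2 and Gm10282, against 7.1% of all genes. As the Hmgn2 contrast led to the choice, nothing is read from these counts. The log2 fold change was positive in 7 members and negative in 3, with a median of 0.04 against 0.00 over all genes, and the median size without sign was 0.10 against 0.09.

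Hmgn1, the widely expressed HMGN protein encoded on chromosome 16, was the steadiest member. It stood at 578, 563 and 548 CPM in shVec and at 572, 574 and 561 CPM in shNgb. The groups overlapped and the 6 tumours lay within 1.06-fold of each other. The log2 fold change was 0.02 (SE 0.0631, 95% interval -0.13 to 0.16; edgeR adjusted p = 0.9997), so the interval spans folds of 0.915 to 1.12. Its 4 copies held 632 reads against 75059 on Hmgn1. Among them the small count of Gm8666 stood at 3.64, 3.38 and 4.48 CPM in shVec and at 2.03, 2.80 and 0.536 CPM in shNgb; the groups did not overlap, and the log2 fold change was -1.11 (SE 0.497, 95% interval -2.25 to 0.03; edgeR adjusted p = 0.9997).

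Hmgn3, which has no copy by this measure, stood at 19.3, 19.8 and 18.8 CPM in shVec and at 19.3, 19.0 and 24.6 CPM in shNgb. Apart from shNgb 3 the tumours were alike, and the sign turned without it (-0.01 against 0.12, SE 0.131). Hmgn5, an X-linked gene whose coding sequence of 406 codons makes it by far the longest HMGN, stood at 44.2, 37.8 and 36.0 CPM in shVec and at 47.3, 39.4 and 46.0 CPM in shNgb. Its groups overlapped, and the log2 fold change was 0.17 (SE 0.112, 95% interval -0.09 to 0.42; edgeR adjusted p = 0.9997).

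Hmga1, whose coding sequence holds 3 AT-hook cores in 107 codons, stood at 1136, 989 and 1041 CPM in shVec and at 938, 1037 and 1166 CPM in shNgb. The highest and the lowest tumour were both shNgb, and the log2 fold change was -0.01 (SE 0.0943, 95% interval -0.22 to 0.20; edgeR adjusted p = 0.9997), with 0.01 under upper quartile scaling. Summed with Hmga1b it was -0.01 (SE 0.0974). Exons of the antisense genes AI413582 and Gm49774 overlap Hmga1, and the kit used does not mark strand, so their reads cannot be told apart from those of Hmga1 there. Over all tumours AI413582 had 1576 reads, Gm49774 1090 and Hmga1 140110.

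Hmga2, the embryonic HMGA protein with 3 AT-hook cores, stood at 435, 488 and 508 CPM in shVec and at 375, 537 and 445 CPM in shNgb. The shNgb tumours again bracketed the controls. The log2 fold change was -0.08 (SE 0.128, 95% interval -0.37 to 0.22; edgeR adjusted p = 0.9997), and without shNgb 1, the lowest tumour, it was 0.04. The antisense gene 1700006J14Rik overlaps its exons and had 1764 reads against 61647 on Hmga2.

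Hmga2 is a known target of the let-7 microRNAs, which LIN28 proteins hold back, and the sites lie in its long 3′ untranslated region. The let-7a sequence is shown from RefSeq (GRCm38.p6) with its seed, bases 2 to 8, in capitals, and the 4 places of the Hmga2 3′ region (GRCm38, minus strand of chromosome 10) that hold the letters CTACCTC, the complement of the seed, are shown with those letters in capitals.
let-7a, chr13:48538239-48538260, minus strand: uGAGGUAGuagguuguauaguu
chr10:120364224-120364245: ccgacattcaatttCTACCTCa
chr10:120362987-120363008: cccactcctcaataCTACCTCt
chr10:120362549-120362570: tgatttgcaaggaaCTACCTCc
chr10:120361691-120361712: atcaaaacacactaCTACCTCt
The search covered the sense strand, and no overlap with another motif was scored. Of 1091 3′ regions of like length, 15.0% hold the letters at least once and 0.18% hold them 4 times or more. Hmga1 holds them once, and the other 8 members not at all. A match is a description, not a shown site, and let-7 itself was not measured here.

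The 18 genes of the LIN28, let-7 and HMGA2 axis gave 17 tested genes, of which 0 were called by edgeR, 7 were positive and 10 negative on the log2 scale (median -0.01). Lin28b, which blocks let-7 maturation, averaged 22.9 ± 3.71 CPM in the shVec tumours and 23.7 ± 2.95 CPM in the shNgb tumours (SD, n = 3). Its paralog Lin28a was at 0 in every shNgb tumour and averaged 0.0336 CPM in shVec. Igf2bp2, an RNA-binding protein whose gene HMGA2 activates, stood at 317 ± 16.2 and 284 ± 39.2 CPM. The slicing Argonaute Ago2 stood at 293 ± 35.9 and 268 ± 21.5 CPM, and the processing nucleases Dicer1 and Drosha at 150.2 ± 6.10 and 148 ± 6.71 CPM and at 143 ± 14.1 and 142 ± 12.7 CPM. In edgeR 1 of the 17, the transcription factor Snai2, had an unadjusted p under 0.05, against 2.58% of all genes. Its log2 fold change was -0.54 (SE 0.202, edgeR adjusted p = 0.9997).

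The HMGB genes, which code for C-terminal runs of 30 (Hmgb1), 23 (Hmgb2) and 20 (Hmgb3) acidic residues, gave small differences. Hmgb1 stood at 148, 137 and 129 CPM in shVec and at 156, 130 and 137 CPM in shNgb. The groups overlapped, and the log2 fold change was 0.03 (SE 0.0921, 95% interval -0.18 to 0.24; edgeR adjusted p = 0.9997). Hmgb1 has the most copies, 43, of which 26 had reads, and they held more reads (28540) than Hmgb1 itself (18447). The 3 of most reads were Gm5518 at 14885, Hmgb1-ps2 at 4240 and Gm5527 at 4230 reads. The share of Hmgb1 in the reads of its whole copy family stayed between 37.8% and 40.9%, and the log2 fold change of the sum was 0.02 (SE 0.103). Exons of Uspl1, on the other strand, overlap those of Hmgb1 as well. Uspl1 had 6993 reads over its whole length, and those on the overlap were not counted apart.

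Hmgb2, the HMGB protein of dividing cells, stood at 286, 261 and 255 CPM in shVec and at 306, 284 and 293 CPM in shNgb. One control, shVec 1, lay just above the lowest shNgb tumour. The log2 fold change was 0.14 (SE 0.0734, 95% interval -0.03 to 0.31; edgeR adjusted p = 0.9997) and ran from 0.11 to 0.19 with any single tumour left out. Hmgb3, which is X-linked, stood at 136, 93.5 and 107 CPM in shVec and at 112, 120 and 118 CPM in shNgb. The controls bracketed the shNgb tumours, and the log2 fold change was 0.05 (SE 0.128, 95% interval -0.24 to 0.35; edgeR adjusted p = 0.9997).

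**Figure D4:**
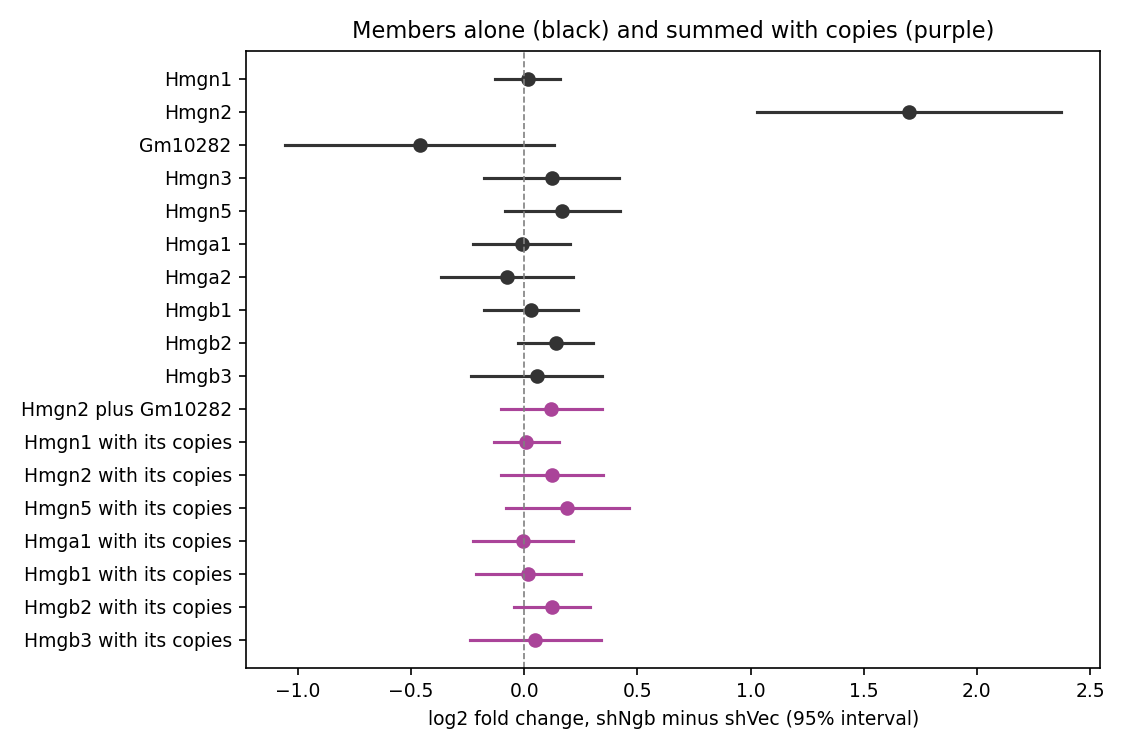
Log2 fold change (shNgb minus shVec) with its 95% confidence interval for each of the 10 genes (black), for the sum of Hmgn2 and Gm10282 and for members summed with all their copies (purple). Hmgn2 alone lies at 1.70 and every other value between -0.46 and 0.19.

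A list of proliferation genes was set beside Hmgb2 because of its link with dividing cells. Of its 20 genes, all tested, edgeR called 0, and 0 had an unadjusted p under 0.05. The log2 fold change was positive in 19 and the median was 0.08, against 0.00 over all genes. Top2a, the topoisomerase of mitotic chromosomes, averaged 797 ± 32.5 CPM in the shVec tumours and 845 ± 33.7 CPM in the shNgb tumours, and Mki67 at 363 ± 30.2 and 395 ± 21.2 CPM. The replicative helicase subunit Mcm6 stood at 345 ± 12.0 and 355 ± 8.74 CPM and the sliding clamp Pcna at 328 ± 1.07 and 361 ± 31.8 CPM (SD, n = 3).

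Linker histones, with which HMGN proteins compete for nucleosomes, were uneven in level, and H1f0 was the most abundant. As background, transcripts of the replication-dependent histones lack a poly(A) tail. Of 10 genes 3 were tested, 0 were called by edgeR and 0 had an unadjusted p under 0.05, and the fold changes of all 3 were negative on the log2 scale (median -0.17). H1f0, whose transcript is polyadenylated, averaged 149 ± 29.1 CPM in the shVec tumours and 132 ± 27.0 CPM in the shNgb tumours. H1fx stood at 11.2 ± 1.85 and 10.2 ± 1.84 CPM and Hist1h1c at 5.61 ± 1.69 and 4.95 ± 0.354 CPM. H1fnt, Hist1h1a and Hist1h1t had 0 reads.

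A list of 28 other genes was taken, most with HMG boxes but not all, as it holds the Hmga1 copy Hmga1b. Of the 22 tested, edgeR called 0 and 0 had an unadjusted p under 0.05. The log2 fold changes were 9 positive and 13 negative, with a median of -0.02. Ssrp1, the HMG-box subunit of the histone chaperone FACT, averaged 369 ± 3.68 CPM in the shVec tumours and 359 ± 7.86 CPM in the shNgb tumours. Hmga1b stood at 474 ± 25.9 and 475 ± 71.8 CPM, Sox4 at 317 ± 45.7 and 267 ± 48.6 CPM, and the ribosomal RNA gene factor Ubtf at 283 ± 17.6 and 283 ± 8.92 CPM. The germ cell member Hmgb4 and the factors Tox2 and Tox3 had 0 reads.

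Histone chaperones and nucleosome remodellers were level. All 24 were tested, edgeR called 0, 0 had an unadjusted p under 0.05, 12 were positive and 12 negative, and the median was 0.01. The chaperone Npm1 averaged 1524 ± 56.3 CPM in the shVec tumours and 1511 ± 119 CPM in the shNgb tumours, and Set, Nap1l1 and the remodeller subunit Baz1b had log2 fold changes of -0.01, 0.01 and -0.02 with SE up to 0.0737.

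Genes through which extracellular HMGB1 signals gave 17 tested genes, 0 called by edgeR, 0 at an unadjusted p under 0.05, 13 positive and 4 negative, with a median of 0.10. Their mean log2 CPM, centred for each gene, was highest in shNgb 3 and lowest in shVec 1, as Ptprc was, and several of these genes belong to leukocytes. Xpo1, which exports HMGB1 from the nucleus, averaged 345 ± 24.1 CPM in the shVec tumours and 360 ± 15.5 CPM in the shNgb tumours. Sirt1, a deacetylase, stood at 66.5 ± 1.76 and 64.3 ± 4.17 CPM, the receptor gene Tlr4 at 24.5 ± 1.13 and 25.1 ± 1.15 CPM, and the pore protein gene Gsdmd at 18.9 ± 9.69 and 27.2 ± 6.39 CPM. Ager, which codes for RAGE, was low at 1.19 ± 0.746 and 1.57 ± 0.534 CPM (SD, n = 3).

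The genes whose log2 CPM followed a member most closely over the 6 tumours were taken from 9019 genes with a mean of at least 10 CPM. For Hmgn2 they were Crip1 (Pearson r = 0.990), Chek2 (0.983) and Ndufa3 (0.979), whose own log2 fold changes were 0.26, 0.21 and 0.24. Their positive sign follows from the choice, as the groups were apart in Hmgn2. For Gm10282 they were Arrdc3 (0.998), Eif4ebp1 (0.988) and Adm (0.986). For the sum they were Krcc1 (0.982), Lysmd3 (0.978) and Srek1 (0.967). These values describe 6 points that share libraries and scaling, and carry no p. The genes most like Hmgn2, most like Gm10282 and most like their sum were all different, and nothing is read from that.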

How the data were processed

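The authors deposited whole read counts per Ensembl gene for 6 libraries, used for all tests, and FPKM values per sample, used for levels between genes. Trizol RNA went into TruSeq libraries, per the labels' protocols, a kit that does not mark strand. Per the submitters' processing notes, Bowtie 0.12.2 and the builds mm8 and mm10 are named with no role; which tool counted the reads, and how it treated those that map to several places, is not given in the sources used here. Positions came from GENCODE M21 (GRCm38), and symbols from it and a table of gene names, which together named 54495 of 54532 IDs.

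Counts were fitted with edgeR 4.0.16 in R 4.3.3 (default expression filter, TMM scaling, robust quasi-likelihood F-test, Benjamini-Hochberg adjustment over 15203 genes, calls at 0.05), all 6 tumours, no covariate. Standard errors came from the F statistic. Copies were found with blastn 2.17.0 (95% identity over 250 bases). Alternatives were DESeq2 1.42.0, upper quartile and RLE scaling, a strict filter (10 reads and 1 CPM in 3 libraries) or none, a replicate block, limma-voom (limma 3.58.1), an adjusted p under 0.1, counts summed with copies and each tumour left out. The scripts were tested on simulated data.

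Members, gene lists and alternatives were chosen with earlier results of these data known. Genes named are all members, up to 3 copies each of most reads, the 4 of highest level per list, the 3 most like Hmgn2, Gm10282 and their sum, and Ngb. Snai2, Lin28a, Lin28b, Ager, marker genes, the Hmgn2 copies past the third, genes at 0 reads and Rpl17 were named after their values were seen. The labels' cell line field carries a running number that differs between samples; the source, G422 in all, was used.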

Additional observations from a re-analysis of the deposited data

How the results depend on the processing

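With DESeq2, Hmgn2 (log2 fold change 1.70) was the 1 member called, against 0, with 5 genes called in all; since the genes were chosen with this difference known, nothing is read from that call. Without a filter edgeR called 3 genes and with a replicate block 1, none of them members; the cause was not tested. Deviations of same-numbered tumours from their group means had r of 0.24, -0.34 and -0.16 over 9475 genes. Within a group of 3 such deviations are tied to each other, so these values do not settle whether the numbers pair tumours. With the replicate block the log2 fold change of Hmgn2 was 1.74. Summed with its copies, Gm10282 turned from -0.46 to 0.12, because the sum holds Hmgn2, and Hmga1 became 0.0093 under upper quartile scaling, which moved the median of all genes to 0.02. With a tumour left out, values ran from -0.0065 to 0.033 for Hmgn1, -0.0114 to 0.19 for Hmgn3, -0.0985 to 0.0601 for Hmga1, -0.218 to 0.0393 for Hmga2, -0.0493 to 0.0857 for Hmgb1 and -0.0614 to 0.216 for Hmgb3, so their signs are not settled. Hmgn2 ran from 1.50 to 2.07, its sum with Gm10282 from 0.05 to 0.20 and the gap in shares from 21.1 to 34.4 points. Of the 50-base words of the longest Hmgn2 coding transcript, 67.1% recur in Gm10282, and the part of this in the split of reads was not tested.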
